A study of Mus musculus with 101 samples.

Results

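Glycolysis turns glucose into pyruvate, and pyruvate is either reduced to lactate or enters mitochondria. Astrocytes take up glucose through the transporter encoded by Slc2a1, are the main brain cells that store glycogen, and can release lactate through monocarboxylate transporters for use by neurons. Many steps have 2 or more isozymes encoded by separate genes, so the makeup of a step can differ between cell types. The 31 genes described here, of 24056 entries per library, were taken by name from a list. They are glucose transporters (Slc2a1, Slc2a3), glycolytic enzymes and the regulator Pfkfb3, lactate dehydrogenases, monocarboxylate transporters (Slc16a1, Slc16a3, Slc16a7), glycogen enzymes and their targeting subunits, and the pyruvate dehydrogenase kinases Pdk2 and Pdk4. All 31 were found. The list was drawn up with earlier results of these data known.

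Mice of the strain labelled C57 received LPS, short for lipopolysaccharide, an outer membrane molecule of bacteria that sets off inflammation, at 5 mg/kg or PBS (buffered saline) into the peritoneum. The areas labelled PFC and VCX were taken 1, 2 or 14 days later, and polyA RNA was sequenced from ribosomes pulled down through a hemagglutinin tag in astrocytes (IP) and from the cleared lysate (input). Each of the 24 IP and input groups (LPS and PBS, at each day, in each area) holds 4 libraries, except 3 for LPS in the day 2 PFC IP and in the day 2 VCX input. Another 3 LPS and 4 PBS libraries of whole PFC tissue at day 1 complete the 101. Both sexes were used, except in whole tissue, which came from females. All IP and input groups, PBS included, come from animals whose astrocytes carry the tag. The gene construct that drives it, the ages, and whether libraries share or pool animals are not given in the sources used here.

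Libraries held 20674472 to 118530559 reads in listed genes (median 40918645). Levels are FPKM (reads scaled to gene length and library size) as deposited, divided by a scaling factor per library. Differences are on the log2(FPKM + 0.1) scale with their SE. A gene is called if its limma adjusted p is under 0.05 over all genes tested. As nothing says that libraries came from separate animals, p-values measure the spread between libraries. The astrocyte label of the IP was checked against markers. The 10 astrocyte markers, Aldh1l1 and Slc1a2 among them, summed to 10500 to 11400 FPKM in the IP against 440.3 to 547 FPKM in the input of the PFC at day 1 (PBS). The 10 neuron markers summed to 166 to 194 FPKM in the IP against 2422 to 2821 FPKM in the input. The 10 neutrophil and monocyte markers ran the other way, 13.5 to 51.6 FPKM in the IP against 2.19 to 6.25 FPKM in the input. So did the 6 meningeal fibroblast markers, at 69.02 to 99.91 FPKM in the IP against 19.25 to 26.05 FPKM in the input. The 8 pericyte and smooth muscle markers summed to 61.76 to 82.4 FPKM in the IP against 52.61 to 56.33 FPKM in the input. Microglia, endothelial, oligodendrocyte and oligodendrocyte precursor sums were lower in the IP. In whole tissue, the library labelled PBS replicate 3 goes against its label. It held 70.5 FPKM of the acute phase gene Saa3 and 18.2 FPKM of Lcn2, against at most 0.689 and 0.760 FPKM in the other 3 libraries labelled PBS. The column headers of the files of PBS replicates 3 and 4 of whole tissue differ from the titles of these samples. The header of replicate 4 is the title of replicate 3, and that of replicate 3 is the title of no sample used here. Every whole tissue value therefore rests on the sample assignment of the files.

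The glycogen genes and the C isozyme of aldolase set the astrocyte fraction apart from the cortex around it. In PBS libraries, 6 members were 12.9-fold or more higher in the IP than in the input in all 3 days and both areas. These were Pdk4, Aldoc, Pygm, Ppp1r3g, Pygb and Ppp1r3c, at log2 differences from 3.69 to 4.74. A further 4 members were lower in the IP throughout, the neuronal enolase gene Eno2, the neuronal glucose transporter gene Slc2a3 and the lactate transporter genes Slc16a7 and Slc16a3. In bulk libraries, fewer cells of a type and less RNA per cell cannot be told apart.

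**Figure D1:**
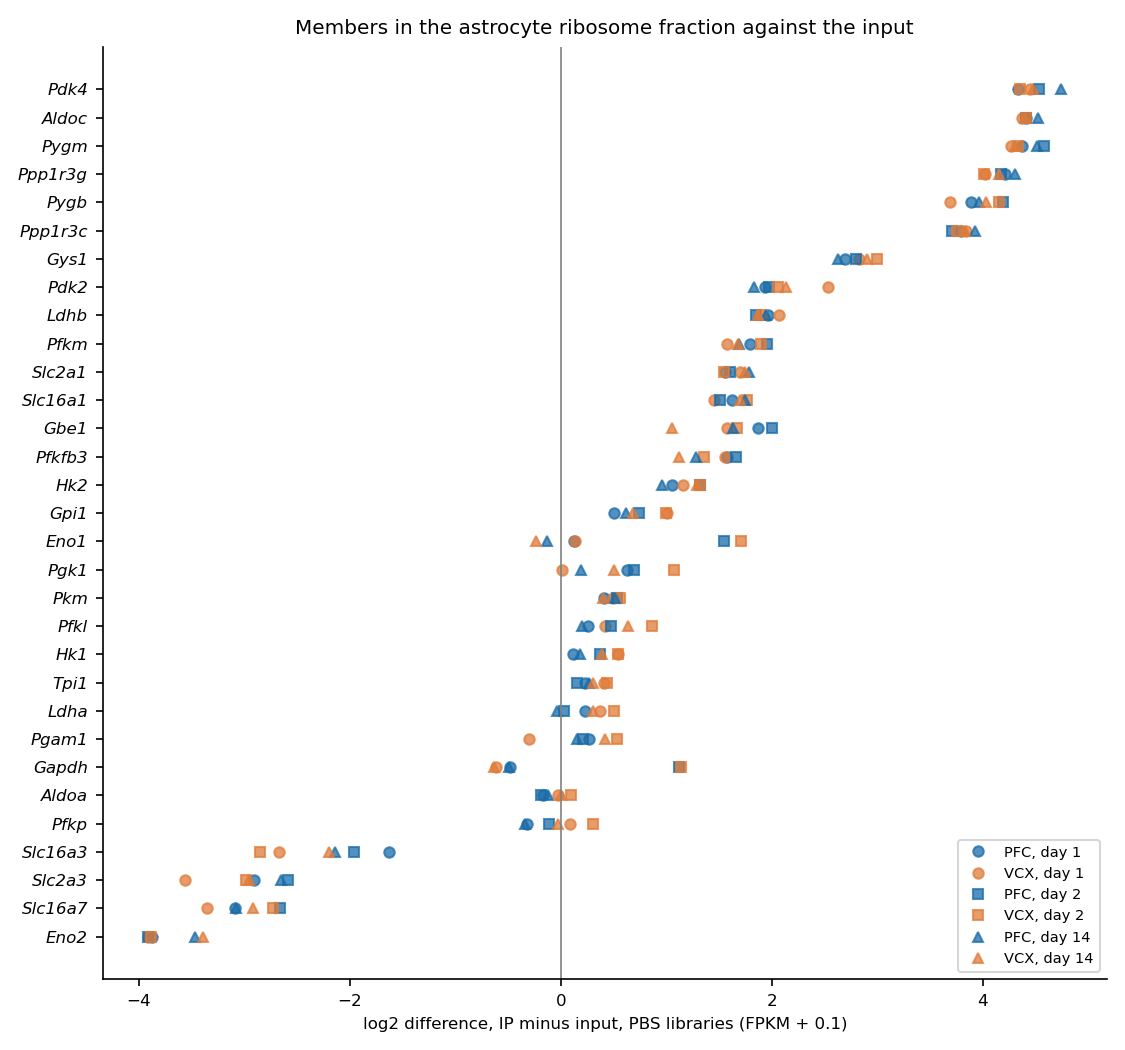
Log2 difference between IP and input in PBS libraries (horizontal axis) for each of the 31 members (vertical axis, ordered by their mean), one point per area (blue PFC, orange VCX) and day (circle 1, square 2, triangle 14). Pdk4, Aldoc, Pygm, Ppp1r3g, Pygb and Ppp1r3c lie at 3.69 or above, and Eno2, Slc16a7, Slc2a3 and Slc16a3 at -1.63 or below.

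Of 31 members tested at day 1, the PFC had 28 called between IP and input, 21 higher and 7 lower in the IP, where 83.1% of all genes tested were called, 43% higher and 40.1% lower. The VCX had 26, 21 higher and 5 lower, where 84% of all genes were called, 43.5% higher and 40.5% lower. At day 2 the PFC had 23 higher and 6 lower (82.6% of all genes called, 42.4% higher and 40.2% lower) and the VCX 26 and 4 (82.7%). At day 14 the PFC had 19 higher and 6 lower (82.8%) and the VCX 23 and 5 (82.2%). The share of members called lay between 80.6 and 96.8%, near the background. Their medians were 0.61 to 1.32 on the log2 scale against 0.04 or less for all genes. Without rescaling between libraries the median of all genes lay between -0.69 and -0.62, and the splits of higher and lower became 15 and 12, 16 and 14, 17 and 12, 20 and 9, 14 and 15, and 15 and 13 in the same order. In each comparison 4 to 7 called members changed sign, none with a difference above 0.633 in size. Directions are therefore named below only for members beyond 1 on the log2 scale.

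For glucose uptake, Slc2a1, the transporter of astrocytes and vessels, ran at 44.9 to 64.9 FPKM (median 51.9) in IP against 10.9 to 21.7 FPKM (median 17.1) in input libraries over 24 PBS libraries each, a log2 difference of 1.54 to 1.78 across the 6 comparisons. Slc2a3 stood the other way round, at 2.94 to 8.37 FPKM (median 5.54) in IP against 30.4 to 49.3 FPKM (median 41.5) in input libraries (log2 difference -3.56 to -2.59). No PBS IP library reached the lowest PBS input library of Slc2a3. Slc2a1 made up 90.5 ± 3.15% in IP and 29.03 ± 4.66% in input libraries (mean ± SD of n = 24 libraries) of the 2 transporters' summed FPKM.

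Among glycolytic enzymes, Aldoc, which splits fructose bisphosphate, reached the highest level of all members: 6738 to 9442 FPKM (median 8143) in IP against 332 to 450.3 FPKM (median 374) in input libraries (log2 difference 4.37 to 4.52). Its partner isozyme Aldoa, the widespread form, ran at 652 to 942 FPKM (median 823) in IP against 712 to 1025 FPKM (median 837) in input libraries. Aldoc held 90.9 ± 0.468% in IP and 30.9 ± 1.92% in input libraries of aldolase FPKM. Pfkm, the muscle-named phosphofructokinase of the committed step, held 73.1 ± 1.35% in IP and 47.1 ± 3.15% in input libraries of the phosphofructokinase FPKM. Pfkp, the platelet-named form, held 14.6 ± 1.44% in IP and 33.5 ± 1.94% in input libraries. Hk1 held 98.3 ± 0.396% in IP and 99.1 ± 0.197% in input libraries of the FPKM of the 2 hexokinases. Hk2 held 1.67 ± 0.396% in IP and 0.873 ± 0.197% in input libraries. Pfkfb3, which makes the activator of phosphofructokinase, differed by 1.12 to 1.66. It stood at 6.87 to 13.8 FPKM (median 9.90) in IP against 2.20 to 4.68 FPKM (median 3.66) in input libraries. Eno2 differed by -3.91 to -3.40, at 13.3 to 37.5 FPKM (median 17.3) in IP against 227 to 308 FPKM (median 253) in input libraries.

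At the lactate step Ldhb, the form usually tied to lactate use, held 83.2 ± 1.94% in IP and 60.5 ± 3.07% in input libraries of lactate dehydrogenase FPKM. Its log2 difference was 1.85 to 2.07. Ldha, the form usually tied to lactate production, differed by -0.04 to 0.50. The transporter makeup differed as well. Slc16a1 (MCT1) held 93.4 ± 1.69% in IP and 36.8 ± 2.88% in input libraries of the 3 monocarboxylate transporters. Slc16a7 (MCT2, found mainly in neurons) held 5.598 ± 1.49% in IP and 55.7 ± 3.07% in input libraries. Slc16a3 (MCT4, which mostly exports lactate) was the scarcest member in the IP, at 0.0814 to 0.644 FPKM (median 0.223) in IP against 0.785 to 2.84 FPKM (median 1.64) in input libraries. Its IP levels rest on few reads, 17 to 94 per PBS library at day 1 and 4 to 31 at day 2.

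**Figure D2:**
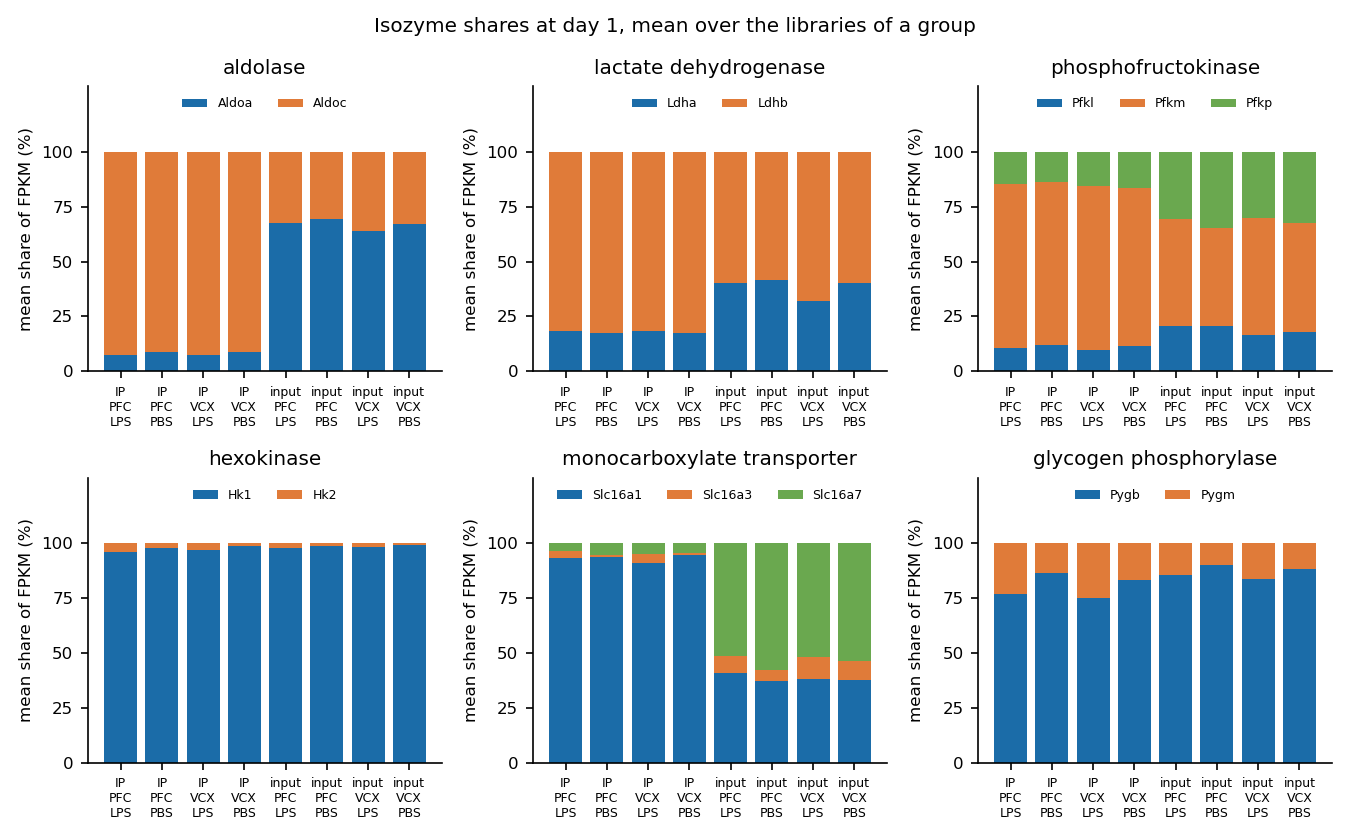
Mean share of each isozyme in the summed FPKM of its step (vertical axis, percent) in the day 1 groups, LPS beside PBS, IP groups before input groups. Aldoc and Slc16a1 fill most of the bar in IP groups, Aldoa and Slc16a7 in input groups, and the Pygm part is larger in LPS than in PBS bars.

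Most of the largest differences lay in the glycogen genes. Pygb and Pygm encode the brain- and muscle-named glycogen phosphorylases, which release glucose units from glycogen. Pygb ran at 492 to 808 FPKM (median 634) in IP against 33.3 to 46.9 FPKM (median 41.9) in input libraries (log2 difference 3.69 to 4.19). Pygm ran at 74.7 to 131 FPKM (median 96.9) in IP against 2.60 to 7.30 FPKM (median 4.73) in input libraries (4.27 to 4.58). Ppp1r3c and Ppp1r3g encode subunits that bring protein phosphatase 1 to glycogen. The first stood at 233 to 423 FPKM (median 319.6) in IP against 17.8 to 32.4 FPKM (median 21.3) in input libraries, and the other at 53.6 to 99.7 FPKM (median 70.8) in IP against 2.43 to 5.94 FPKM (median 3.78) in input libraries. Glycogen synthase Gys1 differed by 2.63 to 3.0 and the branching enzyme Gbe1 by 1.05 to 2.00. The kinases that switch off pyruvate dehydrogenase were higher as well. Pdk4 ran at 34.1 to 48.6 FPKM (median 39.4) in IP against 1.29 to 2.45 FPKM (median 1.75) in input libraries. Pdk2 differed by 1.83 to 2.53.

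In 4 members the level differed between the days of the IP and input libraries. Each of these days is a sequencing project of its own, so day and project cannot be told apart among them. Gapdh, the enzyme after aldolase and triosephosphate isomerase, stood at 1.45 to 4.36 FPKM in the 64 IP and input libraries of days 1 and 14, and at 752 to 924 FPKM in day 2 IP libraries. It stood at 338 to 439 FPKM in day 2 input and 365 to 391.7 FPKM in whole tissue libraries. The whole tissue was also taken at day 1 but belongs to another project, so the low levels were not shared by all day 1 libraries. In whole tissue Pgk1 stood at 53.67 to 62.21, Pgam1 at 40.53 to 47.64 and Eno1 at 5.102 to 6.52 FPKM. In day 1 IP and input libraries they stood at 7.957 to 25.17, 9.236 to 24.97 and 0.2518 to 0.8978 FPKM. The cause was not tested. The mean of PBS IP libraries at day 2 over day 1 was 350-fold for Gapdh, 31.98-fold for Eno1, 8.63-fold for Pgk1 and 4.09-fold for Pgam1, against 0.880 to 1.60 for the other 27 members. These 4 are the members with the largest share of 50-base stretches that recur in other annotated genes. The share was 58.4% for Gapdh, 49.5% for Eno1, 68.0% for Pgk1 and 41.5% for Pgam1, against at most 24.5% for the others. Of the 222 other genes that share a stretch with Gapdh, 213 are pseudogenes. A single 50-base stretch of the Gapdh transcript (chromosome 6, in lower case throughout, with no base marked) occurs in 84 other annotated genes, shown because reads from it could come from any of them:
Gapdh: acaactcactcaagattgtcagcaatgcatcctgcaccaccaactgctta

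**Figure D3:**
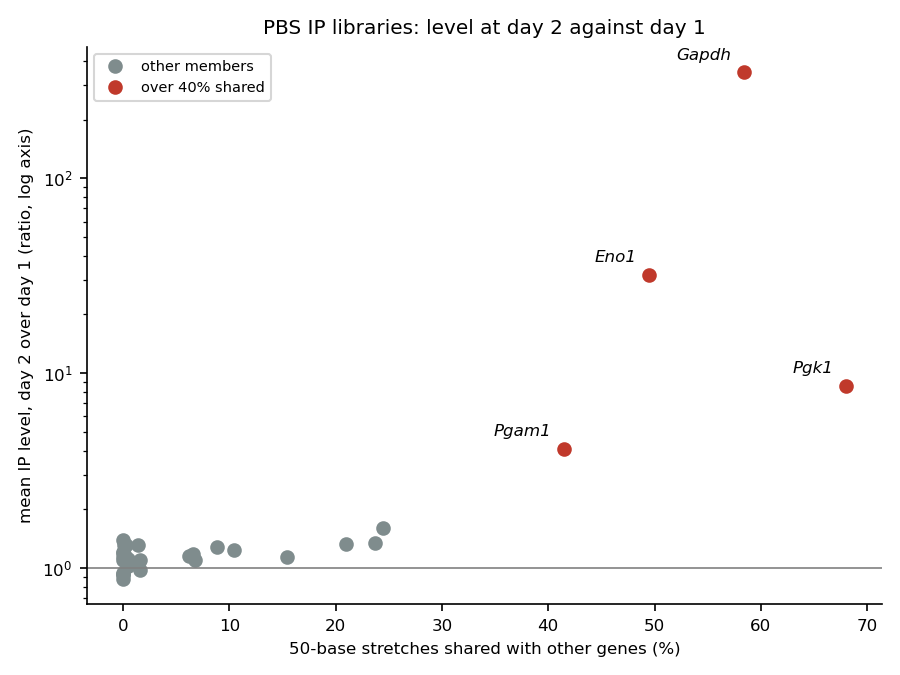
Mean level in PBS IP libraries at day 2 divided by day 1 (vertical log axis) against the share of a gene's 50-base stretches found in other genes (horizontal axis, percent), one point per member, red for the 4 members over 40%. Gapdh, Eno1, Pgk1 and Pgam1 lie between 4.09 and 350, the other 27 members between 0.880 and 1.60.

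Counts of genes that share sequence depend on how reads with several positions were treated, which the sources used here do not state, and levels of these 4 members are uncertain. The IP to input difference of Gapdh had a different sign by day, at -0.49 and -0.61 at day 1 in PFC and VCX, 1.12 and 1.13 at day 2, and -0.49 and -0.64 at day 14. The limit of 40% was chosen after the values were seen.

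At day 1 after LPS, members of the astrocyte fraction changed in both directions. Genes for glucose trapping (Hk2), lactate export (Slc16a3), glucose transport (Slc2a3) and glycogen handling (Pygm, Gbe1) rose in both areas, and the glycolytic regulator gene Pfkfb3 and the glycogen targeting subunit gene Ppp1r3c fell in both. In the PFC IP 9 of 31 members were called, 7 higher and 2 lower, where 20.6% of all genes tested were called, 11.8% higher and 8.82% lower. In the VCX IP 11 were called, 6 higher and 5 lower, where 21.7% of all genes were, 11.6% higher and 10.1% lower. The higher calls of each area include Slc16a3, which reached 0.5 FPKM, the limit for testing, in 8 of 8 LPS but 1 of 8 PBS IP libraries. Its call therefore lends these counts no support. The members' median log2 difference was 0.02 in each area, against 0.00 and -0.01 over all genes.

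**Figure D4:**
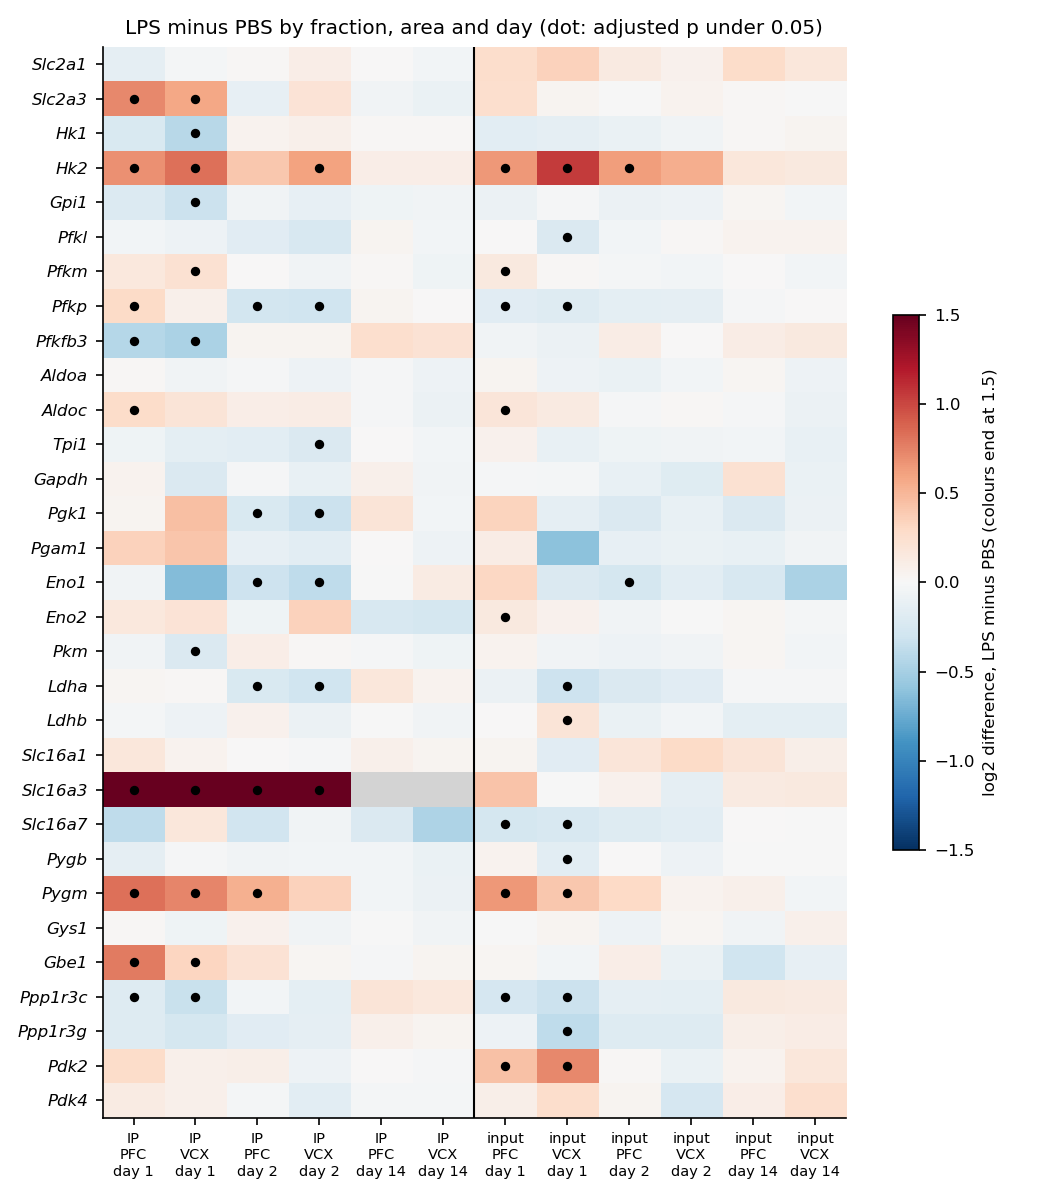
Log2 difference between LPS and PBS (colour, red higher and blue lower, ending at 1.5 in each direction) for each member (rows) by fraction, area and day (columns), with a dot where the limma adjusted p was under 0.05. Grey marks Slc16a3 in the day 14 IP, which was not tested; its day 1 and day 2 IP values lie at 1.49 to 2.42, at or past the end of the colours.

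Of the 12 LPS comparisons of IP and input, Hk2 was called in 6 and Pygm in 5, higher in LPS each time. Pfkp was called in 5, higher in 1 and lower in 4. The promoters of these 3 members are shown because no other member was called as often. They are the 250 bases before the RefSeq gene start on GRCm38.p6, 5′ to 3′ in the direction of the gene, and capitals mark the hypoxia response core ACGTG, read on either strand:
Hk2, chr6:82774455-82774704 (-): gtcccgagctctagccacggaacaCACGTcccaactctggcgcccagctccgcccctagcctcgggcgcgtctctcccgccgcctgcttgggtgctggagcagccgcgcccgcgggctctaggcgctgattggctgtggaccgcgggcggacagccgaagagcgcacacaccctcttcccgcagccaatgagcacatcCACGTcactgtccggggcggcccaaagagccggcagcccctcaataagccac
Pfkp, chr13:6648772-6649021 (-): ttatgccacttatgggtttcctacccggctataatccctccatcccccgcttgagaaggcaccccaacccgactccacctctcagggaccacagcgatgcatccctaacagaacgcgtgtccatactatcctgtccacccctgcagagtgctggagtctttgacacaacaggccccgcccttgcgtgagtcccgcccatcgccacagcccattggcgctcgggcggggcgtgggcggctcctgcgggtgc
Pygm, chr19:6384158-6384407 (+): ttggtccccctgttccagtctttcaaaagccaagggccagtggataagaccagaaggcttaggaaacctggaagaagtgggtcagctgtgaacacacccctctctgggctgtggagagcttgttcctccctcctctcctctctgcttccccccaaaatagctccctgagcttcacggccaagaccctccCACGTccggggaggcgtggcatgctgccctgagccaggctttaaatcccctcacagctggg
Of the 29 members with a promoter in the RefSeq table, 14 held ACGTG, and 16.6% of all 32851 promoters did. The short glucocorticoid receptor motif AGAACA stood in 4 members' promoters and 16.1% of all, the STAT motif TTCNNNGAA in 0 and 7.0%, and an NF-kB motif in 1 and 1.4%. The full glucocorticoid response element stood in 0 members' promoters and in 3 of all. Both strands were searched and overlapping matches counted separately. Hk2 held 2 matches of ACGTG, Pygm 1 and Pfkp 0, and none of the 3 held another of these motifs. For the hypoxia response core only the letters ACGTG were searched, so other spellings of it were not counted. A match describes letters, not a bound site.

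Hk2, the inducible hexokinase that traps glucose as its phosphate (chromosome 6, 82725025 to 82774454, - strand in GENCODE vM21 on mm10), had 3.53, 2.85, 4.41 and 2.82 FPKM in LPS against 2.61, 1.80, 1.88 and 1.96 FPKM in PBS IP libraries of the PFC. Hk2 in the VCX had 2.57, 2.71, 2.11 and 2.52 FPKM in LPS against 1.26, 1.56, 1.27 and 1.31 FPKM in PBS IP libraries. All LPS libraries lay above all PBS libraries in both areas. The log2 differences were 0.69 ± 0.15 (limma adjusted p = 0.00359) and 0.83 ± 0.15 (limma adjusted p = 0.00079). The share of Hk2 in hexokinase FPKM was 4.12 ± 0.498% in LPS and 2.19 ± 0.341% in PBS PFC libraries (mean ± SD, n = 4 each). In the VCX it was 2.997 ± 0.209% in LPS and 1.25 ± 0.165% in PBS libraries. Hk1, the constitutive form, had 78.4, 77.9, 89.5 and 68.9 FPKM in LPS against 96.95, 87.6, 81.01 and 104 FPKM in PBS IP libraries of the PFC. These groups overlapped (-0.23 ± 0.099, limma adjusted p = 0.115). For Hk1 the VCX libraries had 80.6, 82.3, 75.8 and 81.6 FPKM in LPS against 119, 122, 101 and 89.3 FPKM in PBS IP libraries. There the groups did not overlap (-0.42 ± 0.099, limma adjusted p = 0.00611).

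Pygm (chromosome 19, 6384399 to 6398459, + strand) had 160.1, 173, 170.3 and 171 FPKM in LPS against 94.9, 90.2, 90.3 and 106 FPKM in PBS IP libraries of the PFC. VCX values of Pygm were 196, 181, 169 and 196 FPKM in LPS against 128, 115, 98.9 and 105 FPKM in PBS IP libraries. The groups did not overlap in either area, at 0.82 ± 0.080 (limma adjusted p = 2.14e-06) and 0.74 ± 0.080 (limma adjusted p = 6.59e-06). Pygm made up 23.2 ± 1.20% of the phosphorylase FPKM in LPS and 13.5 ± 1.56% in PBS PFC libraries. Pygb did not pass (-0.14 ± 0.081, limma adjusted p = 0.259, in the PFC and -0.02 ± 0.081, limma adjusted p = 0.907 in the VCX). Gbe1, which adds branches to glycogen, rose in the PFC by 0.78 ± 0.068 (limma adjusted p = 7.35e-07) and in the VCX by 0.32 ± 0.068 (limma adjusted p = 0.00274). Glycogen synthase Gys1 was at 0.02 ± 0.089 (limma adjusted p = 0.918) and -0.06 ± 0.089 (limma adjusted p = 0.666) and did not pass.

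Ppp1r3c (chromosome 19, 36731731 to 36736653, - strand) had 235, 246, 249 and 248 FPKM in LPS against 264, 284, 279 and 289.5 FPKM in PBS IP libraries of the PFC. Ppp1r3c in the VCX had 306, 288, 268 and 265 FPKM in LPS against 342, 374, 381 and 327 FPKM in PBS IP libraries. LPS libraries lay below PBS libraries without overlap in both areas. The VCX difference was -0.34 ± 0.065 (limma adjusted p = 0.00136). The PFC one, -0.19 ± 0.065 (limma adjusted p = 0.0496), lay just inside the threshold. Leaving out any of the 8 libraries ended the call (log2 difference -0.22 to -0.17, adjusted p = 0.0512 to 0.135). Pfkfb3 had 8.83, 8.16, 8.54 and 7.55 FPKM in LPS against 10.4, 11.7, 11.1 and 11.5 FPKM in PBS IP libraries of the PFC. For Pfkfb3 the VCX libraries had 6.79, 7.41, 6.05 and 5.70 FPKM in LPS against 10.3, 9.06, 8.72 and 7.999 FPKM in PBS IP libraries. Every LPS library lay below every PBS library in each area, at -0.43 ± 0.092 (limma adjusted p = 0.00294) and -0.47 ± 0.092 (limma adjusted p = 0.0014).

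Slc16a3 (chromosome 11, 120948480 to 120960868, + strand) had 1.01, 1.01, 0.604 and 1.31 FPKM in LPS against 0.294, 0.154, 0.161 and 0.644 FPKM in PBS IP libraries of the PFC. VCX values of Slc16a3 were 0.732, 1.06, 1.43 and 1.29 FPKM in LPS against 0.232, 0.184, 0.172 and 0.392 FPKM in PBS IP libraries. PBS replicate 4 of the PFC lay above the lowest LPS library, and in the VCX the groups did not overlap. The log2 differences were 1.49 ± 0.30 (limma adjusted p = 0.00197) and 1.83 ± 0.30 (limma adjusted p = 0.000335). Slc16a3 entered the test through the LPS libraries, since 8 of 8 LPS but 1 of 8 PBS IP libraries of the 2 areas reached the limit of 0.5 FPKM for testing. With no such limit, where every gene above 0 was tested, it was called in both areas at the same differences. The PFC values rest on 64 to 161 reads per LPS and 17 to 57 per PBS library of the PFC. Slc2a3 rose by 0.72 ± 0.12 (limma adjusted p = 0.000519) in the PFC and 0.58 ± 0.12 (limma adjusted p = 0.00306) in the VCX. Its means were 8.65 ± 0.430 FPKM in LPS and 5.25 ± 0.827 FPKM in PBS libraries of the PFC (SD, n = 4 each), without overlap, while the VCX groups overlapped.

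Markers of white blood cells, microglia and other cell types moved in the same libraries. Of 10 neutrophil and monocyte markers, S100a8, S100a9 and Ly6c2 among them, 9 rose in the PFC IP and 10 in the VCX IP. The sums were 163 to 245 FPKM in LPS against 13.5 to 51.6 FPKM in PBS IP libraries of the PFC and 138 to 216 FPKM in LPS against 9.37 to 24.1 FPKM in PBS IP libraries of the VCX. Of 10 microglia and macrophage markers 7 and 8 rose, and 0 and 1 fell. The sums were 81.2 to 91.6 FPKM in LPS against 52.4 to 59.1 FPKM in PBS IP libraries of the PFC and 70.4 to 84.8 FPKM in LPS against 41.2 to 49.2 FPKM in PBS IP libraries of the VCX. Of the 10 endothelial markers, 9 of which were tested, 2 and 4 rose, and 1 and 0 fell. The sums were 11.2 to 21.04 FPKM in LPS against 13.8 to 19.04 FPKM in PBS IP libraries of the PFC and 17.1 to 31.1 FPKM in LPS against 14.7 to 20.5 FPKM in PBS IP libraries of the VCX. Of 8 pericyte and smooth muscle markers, 4 of which were tested, 0 rose and 3 and 1 fell. Their sums were 42.5 to 65.7 FPKM in LPS against 61.8 to 82.4 FPKM in PBS IP libraries of the PFC and 60.4 to 116 FPKM in LPS against 68.9 to 101.9 FPKM in PBS IP libraries of the VCX. The 8 oligodendrocyte markers summed to 131.7 to 152.5 FPKM in LPS against 104.6 to 129.4 FPKM in PBS IP libraries of the PFC, without overlap. In the VCX they summed to 134.8 to 164.6 FPKM in LPS against 111.1 to 138.9 FPKM in PBS IP libraries. Sums of the 6 meningeal fibroblast markers overlapped in both areas. No marker of the first 3 of these lists was at 0 in every IP library of a group. Of the 10 neutrophil and monocyte markers, 4 in the PFC and 6 in the VCX had a mean under 0.5 FPKM in PBS IP libraries. In LPS IP libraries 0 did. Such markers could reach the limit for testing through the LPS libraries, so the count of those that rose lends no support beyond the sums. Slc2a3 and Slc16a3 were lower in the IP than in the input of PBS libraries. The part of these other cell types in the changes of Slc16a3, Slc2a3, Hk2, Pygm or Gbe1 was not tested.

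Aldoc had 8538, 9148, 8880 and 9643 FPKM in LPS against 7365, 7438, 7125 and 8090 FPKM in PBS IP libraries of the PFC. Aldoc in the VCX had 8544, 8383, 9019 and 9959 FPKM in LPS against 8254, 8316, 6738 and 8126 FPKM in PBS IP libraries. The LPS libraries were higher without overlap in both areas. The difference passed in the PFC, at 0.27 ± 0.077 (limma adjusted p = 0.0188) and not in the VCX, at 0.19 ± 0.077 (limma adjusted p = 0.0831). Leaving out PBS replicate 1 or 3 or LPS replicate 2 or 4 ended the PFC call (0.25 to 0.31 over all 8 omissions, adjusted p = 0.0178 to 0.0609). Pfkp (chromosome 13, 6579768 to 6648777, - strand) had 75.4, 73.6, 81.4 and 73.8 FPKM in LPS against 67.8, 60.01, 61.1 and 60.9 FPKM in PBS IP libraries of the PFC, without overlap (0.28 ± 0.062, limma adjusted p = 0.00337). For Pfkp the VCX libraries had 80.8, 83.03, 73.6 and 81.4 FPKM in LPS against 75.7, 79.2, 74.3 and 72.5 FPKM in PBS IP libraries. There the groups overlapped (0.08 ± 0.062, limma adjusted p = 0.395). The test of the difference between the areas called neither gene, nor any of 13545 genes, at day 1.

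The remaining calls were in the VCX, where Pfkm rose by 0.23 ± 0.065 (limma adjusted p = 0.0195) and Gpi1 and Pkm, the second and the last enzyme of glycolysis, fell, at -0.33 ± 0.097 (limma adjusted p = 0.024) and -0.22 ± 0.071 (limma adjusted p = 0.0348). Each of these 3 calls was lost on leaving out 4 of the 8 libraries in turn and when the VCX groups were fitted alone. The glucose transporter Slc2a1 had 46.2, 48.7, 45.7 and 51.2 FPKM in LPS against 59.2, 47.5, 50.1 and 53.7 FPKM in PBS IP libraries of the PFC. VCX values of Slc2a1 were 59.5, 55.5, 59.1 and 60.9 FPKM in LPS against 62.1, 64.9, 51.7 and 61.9 FPKM in PBS IP libraries. The groups overlapped, at -0.13 ± 0.075 (limma adjusted p = 0.246) and -0.03 ± 0.075 (limma adjusted p = 0.814). Ldha had 133, 123, 156 and 134 FPKM in LPS against 158, 127, 132 and 121 FPKM in PBS IP libraries of the PFC. Ldha in the VCX had 152, 143, 134 and 133 FPKM in LPS against 128, 129, 139 and 159 FPKM in PBS IP libraries. Neither difference passed (0.02 ± 0.094, limma adjusted p = 0.895, and 0.02 ± 0.094, limma adjusted p = 0.903). Pdk4, which is induced by fasting and glucocorticoids in many tissues, had 42.1, 45.4, 35.7 and 40.6 FPKM in LPS against 37.4, 37.5, 34.2 and 41.1 FPKM in PBS IP libraries of the PFC. For Pdk4 the VCX libraries had 39.6, 43.95, 41.5 and 42.4 FPKM in LPS against 41.2, 36.6, 45.6 and 36.1 FPKM in PBS IP libraries. The groups overlapped (0.12 ± 0.086, limma adjusted p = 0.355, and 0.07 ± 0.086, limma adjusted p = 0.579). No call was made for 7 members in any of the 12 LPS comparisons. They were Slc2a1, Aldoa, Gapdh, Pgam1, Slc16a1, Gys1 and Pdk4.

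**Figure D5:**
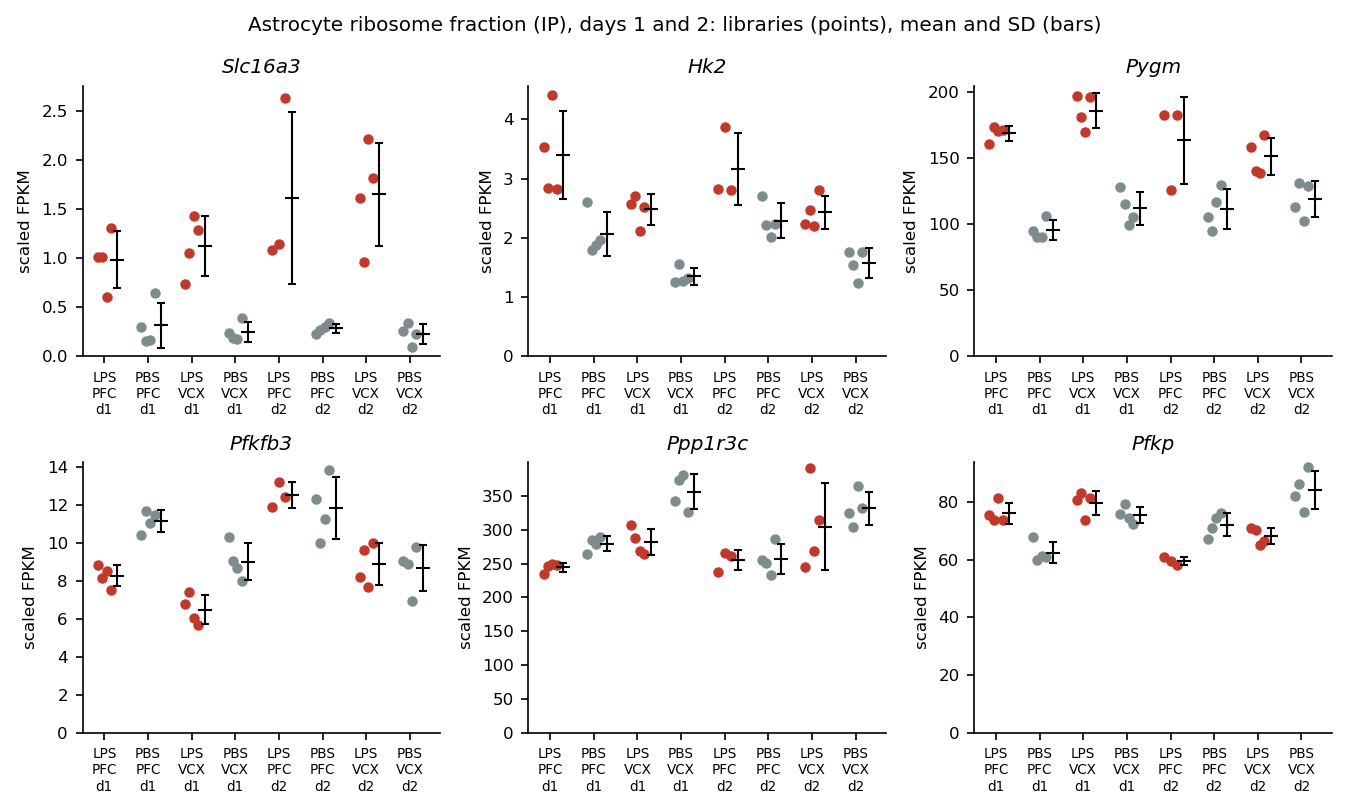
Scaled FPKM (vertical axis, starting at 0) of 6 members in each IP library of days 1 (d1) and 2 (d2), LPS (red) left of PBS (grey) in each area; bars give mean ± SD of 4 libraries, 3 for LPS in the day 2 PFC. Hk2, Slc16a3 and Pygm means stand higher in LPS at both days, Pfkfb3 stands lower in LPS at day 1, and Pfkp lies at 58.1 to 60.9 FPKM in LPS against 67.1 to 76.1 FPKM in PBS PFC libraries at day 2.

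At day 2 the lactate exporter gene Slc16a3 was again higher in LPS libraries, and Pfkp, Pgk1, Eno1 and Ldha fell in both areas. Levels of Pgk1 and Eno1 are uncertain because of shared sequence. The PFC calls of Pfkp, Pgk1 and Ldha were lost in 2, 1 and 6 of 7 omissions of a library. Gapdh, Pgam1, Eno2, Pkm and Ldhb, members of the same later steps, were called in neither area. In the PFC IP 6 of 31 members were called, 2 higher and 4 lower, where 8.01% of all genes were called, 5.25% higher and 2.76% lower. In the VCX IP 7 were called, 2 higher and 5 lower, where 7.47% of all genes were, 4.38% higher and 3.08% lower. The higher calls of each area include Slc16a3, which reached the limit for testing in 7 of 7 LPS and 0 of 8 PBS IP libraries. Its call therefore lends these counts no support. The members' medians were -0.02 and -0.06, against -0.02 in each area over all genes. Without the PFC LPS library replicate 1, or with the PFC groups fitted alone, 3 PFC members were called.

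Slc16a3 had 1.08, 1.14 and 2.63 FPKM in LPS against 0.223, 0.270, 0.301 and 0.341 FPKM in PBS IP libraries of the PFC. VCX values of Slc16a3 were 1.61, 0.961, 2.21 and 1.82 FPKM in LPS against 0.252, 0.338, 0.0953 and 0.222 FPKM in PBS IP libraries. No libraries overlapped, at 2.05 ± 0.34 (limma adjusted p = 0.00157) and 2.42 ± 0.32 (limma adjusted p = 0.000167). Again the gene entered the test through the LPS libraries alone, as 7 of 7 LPS and 0 of 8 PBS IP libraries reached 0.5 FPKM. With no limit it was called in both areas. The PBS values rest on 22 to 29 and 4 to 31 reads per library. Neutrophil and monocyte markers summed to 62.4 to 156 FPKM in LPS against 6.91 to 24.8 FPKM in PBS IP libraries of the PFC and 47.96 to 112 FPKM in LPS against 2.48 to 8.01 FPKM in PBS IP libraries of the VCX. Of 10 markers 9 and 10 were called higher. In PBS IP libraries 6 (PFC) and 8 (VCX) of the 10 had a mean under 0.5 FPKM, and 0 did in LPS. These could reach the limit for testing through the LPS libraries, so that count lends no support beyond the sums. Microglia and macrophage markers summed to 80.7 to 104 FPKM in LPS against 47.9 to 52.3 FPKM in PBS IP libraries of the PFC and 70.6 to 105 FPKM in LPS against 39.7 to 43.2 FPKM in PBS IP libraries of the VCX. Of 10 markers 7 and 9 were called higher. Meningeal fibroblast sums were 97.84 to 108.4 FPKM in LPS against 51.65 to 78.21 FPKM in PBS IP libraries of the PFC. Oligodendrocyte sums were lower there, at 121.6 to 137.4 FPKM in LPS against 144.8 to 157.5 FPKM in PBS IP libraries. In the VCX the groups overlapped for both lists. The part of these cell types in the changes of Slc16a3 and the other members was not tested.

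Hk2 had 2.82, 3.87 and 2.80 FPKM in LPS against 2.70, 2.21, 2.01 and 2.23 FPKM in PBS IP libraries of the PFC. Hk2 in the VCX had 2.24, 2.47, 2.20 and 2.81 FPKM in LPS against 1.77, 1.54, 1.24 and 1.76 FPKM in PBS IP libraries. The groups did not overlap in either area, and the difference passed in the VCX (0.60 ± 0.11, limma adjusted p = 0.00304) and missed the threshold in the PFC (0.40 ± 0.12, limma adjusted p = 0.0556). Pygm had 182, 125 and 182 FPKM in LPS against 105, 94.7, 117 and 129 FPKM in PBS IP libraries of the PFC. LPS replicate 2 lay below PBS replicate 4 (0.54 ± 0.15, limma adjusted p = 0.0394). That call was lost without any 1 of 5 of the 7 libraries, PBS replicates 1 to 3 and LPS replicates 1 and 3. The difference ranged from 0.41 to 0.72 (adjusted p = 0.00333 to 0.245). In the VCX Pygm had 158, 140.1, 138 and 168 FPKM in LPS against 113, 131, 102 and 129 FPKM in PBS IP libraries, without overlap (0.35 ± 0.13, limma adjusted p = 0.141).

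Pfkp had 60.9, 59.5 and 58.1 FPKM in LPS against 67.1, 70.9, 74.5 and 76.1 FPKM in PBS IP libraries of the PFC. For Pfkp the VCX libraries had 70.8, 70.2, 65.1 and 66.6 FPKM in LPS against 81.9, 86.4, 76.6 and 91.99 FPKM in PBS IP libraries. LPS libraries lay below PBS libraries without overlap, at -0.28 ± 0.064 (limma adjusted p = 0.0143) and -0.30 ± 0.059 (limma adjusted p = 0.00503). The PFC call was lost without PBS replicate 4 or LPS replicate 3 (-0.32 to -0.25 over 7 omissions, adjusted p = 0.0109 to 0.0544). Ldha had 140.1, 139 and 137 FPKM in LPS against 159, 170.1, 145 and 172 FPKM in PBS IP libraries of the PFC. VCX values of Ldha were 140.1, 150.3, 136 and 153 FPKM in LPS against 172, 169, 174 and 198 FPKM in PBS IP libraries. These groups did not overlap either, at -0.23 ± 0.064 (limma adjusted p = 0.0396) and -0.30 ± 0.059 (limma adjusted p = 0.00526). The PFC call was lost on leaving out any library but PBS replicate 3 (-0.28 to -0.19, adjusted p = 0.0221 to 0.121).

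Pgk1, which makes the first ATP of glycolysis, had 110.3, 119.7 and 119.5 FPKM in LPS against 133, 137, 125 and 143 FPKM in PBS IP libraries of the PFC. Pgk1 in the VCX had 114, 125, 113 and 131 FPKM in LPS against 150.5, 145, 149 and 157 FPKM in PBS IP libraries. Eno1, the widespread enolase, had 16.8, 16.6 and 17.8 FPKM in LPS against 22.3, 20.3, 18.3 and 22.8 FPKM in PBS IP libraries of the PFC. For Eno1 the VCX libraries had 13.8, 15.5, 14.6 and 17.4 FPKM in LPS against 19.7, 18.6, 19.9 and 21.8 FPKM in PBS IP libraries. For both genes the LPS libraries lay below the PBS libraries. Pgk1 stood at -0.22 ± 0.048 (limma adjusted p = 0.00959) and -0.32 ± 0.045 (limma adjusted p = 0.000306), and Eno1 at -0.32 ± 0.064 (limma adjusted p = 0.00651) and -0.38 ± 0.059 (limma adjusted p = 0.000745). The PFC call of Pgk1 was lost without LPS replicate 1 (-0.25 to -0.20 over 7 omissions, highest adjusted p = 0.0524). Both share much of their sequence with other genes, so their levels are uncertain. At day 1 Eno1 rested on 22 to 114 reads per IP library. Triosephosphate isomerase Tpi1 fell in the VCX, at -0.22 ± 0.048 (limma adjusted p = 0.0113), lost without PBS replicate 3 (adjusted p = 0.0505).

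The difference between the day 1 and day 2 LPS effects was tested in the IP, with project and day again inseparable. In the PFC 4 of 31 members were called, where 5.04% of all genes were. Slc2a3 (0.86 ± 0.19, limma adjusted p = 0.00607), Pfkp (0.56 ± 0.086, limma adjusted p = 0.000243) and Gbe1 (0.55 ± 0.11, limma adjusted p = 0.00436) had the higher LPS effect at day 1. Pfkfb3 had the lower one (-0.49 ± 0.14, limma adjusted p = 0.0312). In the VCX 5 were called, where 7.48% of all genes were. Pfkm (0.29 ± 0.086, limma adjusted p = 0.0397), Pfkp (0.38 ± 0.083, limma adjusted p = 0.00433) and Pgk1 (0.77 ± 0.23, limma adjusted p = 0.0411) had the higher effect at day 1. Hk1 (-0.50 ± 0.11, limma adjusted p = 0.00614) and Pfkfb3 (-0.51 ± 0.13, limma adjusted p = 0.0152) had the lower one. At day 2 Pfkfb3 stood at 0.05 ± 0.083 (limma adjusted p = 0.798) in the PFC and 0.04 ± 0.076 (limma adjusted p = 0.83) in the VCX. The VCX count was 3 without VCX day 1 PBS replicate 1 or 2, day 1 LPS replicate 2 or 4, day 2 PBS replicate 1 or 4 or day 2 LPS replicate 1 or 3. It was also 3 when its groups were fitted alone, and 8 without day 1 PBS replicate 4. The Pgk1 difference ranged from 0.56 to 1.06 when a library was left out and lost its call in 13 of 16 cases.

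In the input at day 1, 9 of 31 members were called in the PFC, 6 higher and 3 lower, where 16.9% of all genes were called, 8.1% higher and 8.84% lower. In the VCX input 11 were called, 4 higher and 7 lower, where 18.1% of all genes were, 7.76% higher and 10.4% lower. Without rescaling the splits were 8 higher and 0 lower in the PFC and 6 and 3 in the VCX (higher and lower). Hk2 and Pygm rose and Ppp1r3c fell in both areas, though no PFC decrease passed without rescaling. Hk2 had 1.87, 1.42, 1.55 and 1.27 FPKM in LPS against 0.982, 0.962, 0.789 and 0.998 FPKM in PBS input libraries of the PFC. VCX values of Hk2 were 1.40, 0.908, 1.48 and 1.24 FPKM in LPS against 0.645, 0.376, 0.595 and 0.614 FPKM in PBS input libraries. The groups did not overlap, at 0.65 ± 0.18 (limma adjusted p = 0.0187) and 1.05 ± 0.18 (limma adjusted p = 0.000571). The PFC calls of Hk2 and Ppp1r3c were each lost in 3 of 8 omissions of a library (highest adjusted p = 0.0678 and 0.0680). Pygm stood at 0.65 ± 0.085 (limma adjusted p = 6.39e-05) and 0.40 ± 0.085 (limma adjusted p = 0.00346). Ppp1r3c stood at -0.25 ± 0.069 (limma adjusted p = 0.0216) and -0.32 ± 0.069 (limma adjusted p = 0.00369). Pdk2 rose by 0.44 ± 0.13 (limma adjusted p = 0.0286) in the PFC and 0.71 ± 0.13 (limma adjusted p = 0.00106) in the VCX. The neuronal transporter gene Slc16a7 and Pfkp fell in both areas, Slc16a7 at -0.26 ± 0.076 (limma adjusted p = 0.0247) and -0.24 ± 0.076 (limma adjusted p = 0.0374). Leaving out a library ended the Slc16a7 call in 5 of 8 cases in each area and the PFC call of Pdk2 in 5 of 8. The marker sums of other cell types differed in these input libraries as well. Microglia and macrophage markers summed to 300.0 to 344.5 FPKM in LPS against 186.4 to 194.2 FPKM in PBS input libraries of the PFC and 251.8 to 293.8 FPKM in LPS against 169.1 to 175.5 FPKM in PBS input libraries of the VCX. Of these 10 markers 9 and 8 were called higher and 1 lower in each area. Endothelial markers summed to 68.2 to 79.3 FPKM in LPS against 50.6 to 56.8 FPKM in PBS input libraries of the PFC and 71.1 to 76.95 FPKM in LPS against 50.8 to 57.6 FPKM in PBS input libraries of the VCX, with 4 and 5 of 10 higher and 1 lower in each area. The neutrophil and monocyte sums were 14.04 to 27.95 FPKM in LPS against 2.19 to 6.25 FPKM in PBS input libraries of the PFC and 11.5 to 22.3 FPKM in LPS against 1.92 to 2.87 FPKM in PBS input libraries of the VCX. All 6 tested of these 10 were higher in each area. In PBS input libraries 7 of the 10 had a mean under 0.5 FPKM in each area, and in LPS 4 (PFC) and 6 (VCX) did. Some could therefore reach the limit for testing through the LPS libraries. Neuron markers summed to 2272 to 2464 FPKM in LPS against 2422 to 2821 FPKM in PBS input libraries of the PFC and 2331 to 2518 FPKM in LPS against 2378 to 2539 FPKM in PBS input libraries of the VCX, with 3 and 2 of 10 lower. Astrocyte markers summed to 415 to 439.9 FPKM in LPS against 440.3 to 547 FPKM in PBS input libraries of the PFC, without overlap. Pericyte and smooth muscle sums were lower there too, at 40.66 to 51.2 FPKM in LPS against 52.61 to 56.33 FPKM in PBS. Oligodendrocyte sums were lower in the VCX, at 240.7 to 267 FPKM in LPS against 275.3 to 341.6 FPKM in PBS. For each of these lists the groups overlapped in the other area. The part of these cell types in the input changes was not tested. The PFC count was 3 to 5 without PBS replicate 3 or any LPS replicate and 5 with the PFC groups alone, and the VCX count 7 without PBS replicate 1.

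Whether the LPS effect differed between IP and input was tested as an interaction. At day 1 in the PFC 2 members were called, where 5.98% of all genes were. Pfkp, at 0.45 ± 0.067 (limma adjusted p = 6.34e-05), rose in the IP (0.28 ± 0.062) and fell in the input (-0.16 ± 0.041). The fall in the input did not pass without rescaling. Gbe1 (0.75 ± 0.11, limma adjusted p = 5.05e-05) rose in the IP and stood at 0.04 ± 0.084 in the input. In the VCX 6 were called, where 9.07% of all genes were. Slc16a3 (1.83 ± 0.35, limma adjusted p = 0.00115), Pgam1 (1.03 ± 0.32, limma adjusted p = 0.0396), Slc2a3 (0.54 ± 0.16, limma adjusted p = 0.0306), Gbe1 (0.36 ± 0.11, limma adjusted p = 0.0366) and Pfkp (0.27 ± 0.067, limma adjusted p = 0.0116) differed toward the IP, and Pdk2 (-0.64 ± 0.18, limma adjusted p = 0.0267) toward the input. At day 2 the call was Slc16a3 alone in each area. It was 1.96 ± 0.37 (limma adjusted p = 0.00845) in the PFC, where 0.894% of all genes were called. It was 2.54 ± 0.37 (limma adjusted p = 0.000449) in the VCX, where 1.16% were. Hk2 and Pygm were called in neither area at day 1 (Hk2 0.04 ± 0.23 and -0.22 ± 0.23, Pygm 0.17 ± 0.11 and 0.34 ± 0.11 in PFC and VCX). Without rescaling the split of higher and lower was 2 and 1 in the PFC and 2 and 3 in the VCX, and with median-ratio (RLE) factors it was 5 and 2 in the VCX. The VCX count was 2 or 3 without IP PBS replicate 1 or 2, IP LPS replicate 4 or input LPS replicate 1 or 3, 3 with these groups alone, and 13 without IP PBS replicate 4. The PFC count was 4 without input PBS replicate 1.

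At day 2 the input held 2 called members in the PFC, where 3.53% of all genes were called, 3.03% higher and 0.503% lower. They were Hk2 (0.62 ± 0.14, limma adjusted p = 0.0232), with 1.16, 1.64, 1.65 and 1.10 FPKM in LPS against 1.01, 0.834, 0.724 and 0.860 FPKM in PBS input libraries of the PFC, and Eno1 (-0.26 ± 0.065, limma adjusted p = 0.0346), with 5.64, 5.62, 6.37 and 5.91 FPKM in LPS against 6.80, 6.82, 7.47 and 7.23 FPKM in PBS input libraries. Neither gene's groups overlapped. Leaving out any library brought that count to 0 or 1, and with no rescaling, RLE factors or the PFC groups alone 1 was left, 1 higher and 0 lower under the first 2. In the VCX input limma called 0 members, where 1.98% of all genes were called, with 5 at an unadjusted p under 0.05 and 0 by limma-voom. Without PBS replicate 4 the count was 1.

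At day 14 limma called 0 of 30 members in the IP and 0 of 31 in the input of either area, and 0% of all genes. At an unadjusted p under 0.05 stood 0 members in each IP comparison and 2 in each input comparison. All genes gave 177 and 290 of 13294 genes in the IP and 574 and 669 of 14067 in the input (PFC and VCX), and limma-voom also called 0. Slc16a3 reached 0.5 FPKM in 1 of 8 LPS and 0 of 8 PBS IP libraries at day 14, too few to be tested. Of the members tested in the day 14 IP, Pfkfb3 stood at 0.26 ± 0.17 in the PFC and 0.22 ± 0.17 in the VCX, Hk2 at 0.10 ± 0.20 and 0.10 ± 0.20, and Pygm at -0.04 ± 0.073 and -0.09 ± 0.073, none of which passed.

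Whole PFC tissue at day 1 gave 0 called members of 31 and 0% of 14411 genes with limma, 7 members and 2804 genes at an unadjusted p under 0.05, and 1 member by limma-voom. Without the library labelled PBS replicate 3, 6 members were called, 4 higher and 2 lower, among 1569 of 14327 genes. Hk2 at 1.01 ± 0.10 (limma adjusted p = 5.15e-05), Slc16a3 at 0.50 ± 0.13 (0.0291), Pygm at 0.30 ± 0.065 (0.0141) and Slc16a1 at 0.24 ± 0.066 (0.0458) were higher. Ppp1r3g at -0.53 ± 0.11 (0.0123) and Ppp1r3c at -0.48 ± 0.074 (0.00159) were lower. Hk2 had 2.41, 2.60 and 2.58 FPKM in LPS against 1.20, 1.11, 2.36 and 1.31 FPKM in libraries labelled PBS. Ppp1r3c had 29.3, 26.2 and 27.5 FPKM in LPS against 40.7, 34.4, 28.98 and 40.7 FPKM in libraries labelled PBS. The third PBS value of each gene is that library's, and for both genes it stood nearest to the LPS libraries.

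The PFC astrocyte fraction held more Slc2a3 and Hk2 and less Ppp1r3c and Pfkp than the VCX one at days 1 and 2, though 4 of these 8 calls were lost on leaving out 1 library. At day 1, 5 members were called between PFC and VCX, where 8.02% of all genes were, and at day 2, 8 were, where 7.52% were. Slc2a3 was higher in the PFC at 0.60 ± 0.12 (limma adjusted p = 0.00621) and 0.47 ± 0.11 (limma adjusted p = 0.0165) (days 1 and 2), Hk2 at 0.57 ± 0.15 (limma adjusted p = 0.0297) and 0.52 ± 0.11 (limma adjusted p = 0.00907), and Pfkfb3 at 0.31 ± 0.092 (limma adjusted p = 0.0486) and 0.45 ± 0.076 (limma adjusted p = 0.0019). Ppp1r3c was lower in the PFC at -0.35 ± 0.065 (limma adjusted p = 0.00263) and -0.37 ± 0.095 (limma adjusted p = 0.027), and Pfkp at -0.27 ± 0.062 (limma adjusted p = 0.0107) and -0.22 ± 0.059 (limma adjusted p = 0.0336). Microglia and macrophage marker sums differed between the areas in these PBS IP libraries too. They were 52.44 to 59.12 FPKM in the PFC against 41.2 to 49.19 FPKM in the VCX at day 1. At day 2 they were 47.87 to 52.34 against 39.69 to 43.24 FPKM. The sums of the other cell type lists overlapped between the areas at both days. The part of other cell types in these area differences was not tested. Leaving out a library ended the day 1 call of Pfkfb3 in 7 of 8 cases (0.26 to 0.37, adjusted p = 0.0313 to 0.153) and that of Hk2 in 4 of 8. At day 2 it ended the call of Slc2a3 in 3, of Pfkp and Ppp1r3c in 5 each, of Pgk1 in 7, of Gys1 in 6 and of Ppp1r3g in 4 of 8 cases. Pgk1, Gys1 and Ppp1r3g were also lower at day 2 (with RLE factors 3 higher and 3 lower were called). Gbe1 was the 1 member called at day 14, higher in the PFC at 0.22 ± 0.056 (limma adjusted p = 0.0336), where 4.71% of all genes were called (1 higher and 1 lower without rescaling, 2 higher with RLE factors, 3 with these groups alone). The day 1 count was 3 without PFC replicate 1 or 3 or VCX replicate 3 and 9 without VCX replicate 4. The day 2 count was 3 or 4 without PFC replicate 1, 3 or 4 or VCX replicate 1, 2 or 3. The day 14 call was lost on leaving out any library but VCX replicate 4. The LPS effect itself was called different between PFC and VCX in 0 members and 0% of all genes by limma at days 1 and 2. At an unadjusted p under 0.05 stood 3 and 0 members and 448 and 525 genes, and limma-voom called 0.

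Of 78 other genes of these pathways, chosen by function, 77 were in the files and 62 were tested in the day 1 IP, where 8 rose and 8 fell in the PFC and 10 rose and 12 fell in the VCX. This list too was drawn up with earlier results of these data known. The background shares are those given above for each comparison. The median difference of the tested pathway genes was -0.02 and 0.02 against 0.00 and -0.01 over all genes. Of 20 glycogen genes tested, 4 rose and 3 fell in the PFC and 5 and 4 in the VCX. Among them were the liver-named phosphorylase Pygl at 0.97 ± 0.12 and 0.84 ± 0.12, the phosphorylase kinase subunit Phka1 at 0.57 ± 0.071 and 0.52 ± 0.071, and Ugp2, which makes the glucose donor for glycogen synthesis, at -0.40 ± 0.068 and -0.40 ± 0.068 (PFC and VCX, log2 ± SE). Of 8 further genes of glycolysis and its regulation, 4 fell and 0 rose in each area. They were Pfkfb2 at -0.41 ± 0.073 and -0.42 ± 0.073 and Pfkfb4 at -0.55 ± 0.11 and -0.53 ± 0.11, of the same enzyme family as Pfkfb3, the hexokinase relative Hkdc1 at -0.87 ± 0.21 and -1.05 ± 0.21, and the glycerol phosphate dehydrogenase Gpd1 at -0.24 ± 0.071 and -0.27 ± 0.071. The glucose transporter genes Slc2a12 (0.56 ± 0.14 and 0.58 ± 0.14) and, in the VCX, Slc2a4 (0.70 ± 0.14, the insulin-sensitive form) rose, as did Pdk3, another pyruvate dehydrogenase kinase, at 0.52 ± 0.089 and 0.53 ± 0.089.

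At day 2, 6 of 63 tested pathway genes rose and 5 fell in the PFC IP, and 3 rose and 4 fell in the VCX IP, with medians of -0.03 and -0.05 against -0.02 in each area over all genes. Pygl was still higher, at 0.50 ± 0.071 and 0.40 ± 0.065, and Pfkfb4 lower, at -0.30 ± 0.080 and -0.30 ± 0.074. Hk3, a hexokinase found mainly in white blood cells and counted among those that rose, had means of 0.569 ± 0.177 FPKM in LPS and 0.0942 ± 0.0252 FPKM in PBS PFC libraries (SD, n = 3 and 4). It was tested at day 2 only because 4 of 7 LPS IP libraries reached 0.5 FPKM. None of the 8 PBS IP libraries did (0 of 8), so its call is no support for a change of the list. The neutrophil and monocyte marker sums given above for these libraries moved with it, and their part was not tested. Pdp2, which switches pyruvate dehydrogenase back on, fell at -0.26 ± 0.070 and -0.36 ± 0.065, and Pdk1 at -0.24 ± 0.060 and -0.21 ± 0.055. In the input, 6 of 64 rose and 9 fell in the PFC at day 1, 5 and 9 in the VCX, 1 and 2 in the PFC at day 2 and 0 and 0 in the VCX, and at day 14 limma called 0 of 62 in both fractions. Between PBS IP and input libraries at day 1, 42 of 66 were called higher and 21 lower in the PFC (median 0.68), and 42 and 20 in the VCX (median 0.72).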

How the data were processed

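RNA of 101 mouse libraries was sequenced by the submitters. The deposited files hold 1 FPKM value per gene and library, normalized by the authors for gene length and library size. STAR, HTSeq and mm10 are named, per the submitters' processing notes; versions, strand setting and the treatment of reads with several positions are not given in the sources used here. Read counts worked back from the FPKM came out whole within 0.05 reads, which gave the depths. FPKM were divided by trimmed-mean factors (30% of M and 5% of A values trimmed), and log2(FPKM + 0.1) was fitted with limma 3.58.1 in R 4.3.3 (trended, robust eBayes, sex as covariate except in whole tissue) over genes that reached 0.5 FPKM in a number of libraries no smaller than that of the smallest group compared, with Benjamini-Hochberg adjusted p over all genes tested. The log2 scale understates changes of low genes. The count test planned as an alternative was not run, and limma-voom on the recovered reads took its place. Fits were tested on simulated data.

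IP and input were each fitted per day over both areas; comparisons of IP with input, or of day 1 with day 2, were fitted over the libraries they need. Within a project no other batch label was used. The members and gene lists were chosen with earlier results of these data known. Values in every library are given for members called most often in the 12 LPS comparisons, for the 2 with the largest called change in each direction in each IP comparison, and for Slc2a1, Pfkfb3, Pdk4, Ppp1r3c, Aldoc and Ldha at day 1; other members are given by counts and ranges. Shared stretches were counted over GENCODE vM21 transcripts, and promoters came from the RefSeq table on GRCm38.p6, which matched 29 of 31 members. Alternatives covered scaling, pseudocount, filter, the groups fitted, each library left out and, chosen after seeing the data, limma-voom on the recovered reads and counts without the 4 members that share sequence.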

Additional observations from a re-analysis of the deposited data

Results flagged for a closer look

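Over 13 members and the 23 groups of 4 libraries, 299 sets of 4 values were examined, and 13 held 1 library far from the other 3; about 1 in 20 would by chance. Groups of 3 libraries were not examined. In whole tissue, Hk2 was at 2.36 FPKM in the library labelled PBS replicate 3, against 1.11 to 1.31 FPKM in the others. At day 14, Pfkfb3 was at 17 FPKM in PFC IP LPS replicate 1, against 10.8 to 11.3 FPKM, at 13.3 FPKM in VCX IP LPS replicate 2, against 6.93 to 7.81 FPKM, and at 2.53 FPKM in VCX input PBS replicate 1, against 3.63 to 3.73 FPKM. Also at day 14, Ldha was at 97.97 FPKM in VCX input LPS replicate 3, against 105 to 106 FPKM, and Pygm was at 4.95 FPKM in VCX input LPS replicate 4, against 3.63 to 3.83 FPKM. Slc2a1 was at 21.1 FPKM in VCX input LPS replicate 3 at day 1, against 24.1 to 24.6 FPKM in the others. Hk2 was at 0.789 FPKM in PFC input PBS replicate 3 at day 1, against 0.962 to 0.998 FPKM. Pfkp was at 67.8 FPKM in PFC IP PBS replicate 1 at day 1, against 60.0 to 61.1 FPKM. Aldoc was at 6738 FPKM in VCX IP PBS replicate 3 at day 1, against 8126 to 8316 FPKM. Ldha was at 198 FPKM in VCX IP PBS replicate 4 at day 2, against 169 to 174 FPKM. Ppp1r3c was at 28.9 FPKM in VCX input PBS replicate 4 at day 1, against 23.3 to 23.5 FPKM, and at 19.1 FPKM in VCX input PBS replicate 4 at day 2, against 26.3 to 26.6 FPKM.

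The LPS effect differed between IP and input, by a limma interaction, for Pfkp (0.45) and Gbe1 (0.75) in the PFC at day 1. In the VCX at day 1 it differed for Slc2a3 (0.54), Pfkp (0.27), Pgam1 (1.03), Slc16a3 (1.83), Gbe1 (0.36) and Pdk2 (-0.64). At day 2 it differed for Slc16a3, by 1.96 in the PFC and 2.54 in the VCX. Between day 1 and day 2 the IP effect differed in the PFC for Slc2a3 (0.86), Pfkp (0.56), Pfkfb3 (-0.49) and Gbe1 (0.55), and in the VCX for Hk1 (-0.50), Pfkm (0.29), Pfkp (0.38), Pfkfb3 (-0.51) and Pgk1 (0.77). All values are log2 differences between effects, and a positive value means a higher effect in the IP or at day 1. The Pgam1 and Pgk1 values are uncertain because of shared sequence. Leaving out 10 of 16 libraries in turn ended the VCX call of Slc2a3, Pgam1 or Gbe1, and 5 of 16 that of Pdk2.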

How the results depend on the processing

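The 207 results for single members counted here include differences between IP and input only where they lay beyond 1 on the log2 scale. None of the 207 reversed under any alternative run. The smaller IP to input differences that changed sign without rescaling, none above 0.633 in size, were left out beforehand. For the IP to input differences the absence of reversals is therefore no test. With the compared groups fitted alone 19 lost their call, without rescaling 11, without the filter 5, with RLE factors 4, with limma-voom 1 and with a pseudocount of 1 again 1; leaving out a library ended 215 of 1796 calls or differences. The cause was not tested. With the compared groups alone, 3 members were called in the PFC IP at day 2, 5 in the PFC input at day 1, 1 in the PFC input at day 2, 3 for the VCX LPS effect in IP minus input at day 1, 3 for PFC minus VCX at day 14 and 3 for day 1 minus day 2 in the VCX. The PFC input at day 2 had 1 with no rescaling, RLE factors or without the 4 members that share sequence, and PFC minus VCX at day 14 had 2 with no rescaling or RLE factors. Limma-voom called 1 member in whole tissue.

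Leaving out 1 library gave 7 to 9 members in the PFC IP and 8 to 15 in the VCX IP at day 1, 3 to 6 and 6 to 9 at day 2, 3 to 9 and 7 to 11 in the input at day 1, 0 to 1 in each input at day 2 and 0 to 6 in whole tissue. IP minus input gave 27 to 28, 26 to 27, 27 to 29, 30, 24 to 26 and 28 (PFC then VCX by day). The LPS effect in IP minus input gave 2 to 4 (PFC) and 2 to 13 (VCX) at day 1, PFC minus VCX 3 to 9, 3 to 7 and 0 to 1 by day, and day 1 minus day 2 gave 3 to 4 (PFC) and 3 to 8 (VCX).

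The planned edgeR test on the recovered reads was not run, and limma-voom on the same reads was run in its place. No paired analysis was possible because the labels give no replicate numbers shared between groups. Depth limits Slc16a3 most, at 4 to 252 reads per IP library.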
